A study of Mus musculus with 14 samples.

Results

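The repressor gene Rest, the 3 CoREST genes Rcor1, Rcor2 and Rcor3, and the splicing factor gene Srrm4 were followed through cultured mouse small cell lung cancer cells. The 5 genes were taken by symbol from a count table of 32926 gene symbols, and each had a single row. RNA sequencing covered 14 libraries. Non-neuroendocrine (Non-NE) and neuroendocrine (NE) cells had 3 libraries each, and NE cells carrying YAP5SA had 2 libraries at each of days 0, 3, 7 and 21. YAP5SA is a mutant of the transcriptional coactivator YAP that Hippo pathway kinases can no longer switch off. The series set NE, Non-NE and YAP5SA cells side by side.

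All cells came from lung tumours of adult mice of mixed strain that carried CGRPCreER/+;Rbf/f;P53f/f;Ptenf/f and were given TM (an agent not spelled out in the labels), and the cells were kept in Hites medium. Cre is thus driven by the promoter of the calcitonin gene-related peptide gene, which is active in lung neuroendocrine cells, and the floxed tumour suppressor genes are shared by every group. The YAP5SA libraries add Rosa26rtTA;Tet-onYAP5SA, except that the text of day 0 replicate 1 names no transgene. The inducing agent and a time course without the transgene were not given in the labels, so time in culture and YAP5SA cannot be told apart. The genotype entries of NE replicates 2 and 3, of the Non-NE libraries and of day 0 replicate 1 print a running number in place of P53. Nothing in the labels says that libraries of a group came from separate cultures or mice, so p-values measure only the spread between these libraries.

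REST is a zinc finger protein that binds the RE1 element of neuronal genes and silences them outside the nervous system. It recruits SIN3 with histone deacetylases through one end and CoREST, which carries the demethylase KDM1A and further deacetylases, through the other. SRRM4 is a splicing activator of neurons and neuroendocrine cells. It promotes the inclusion of an exon in Rest RNA that truncates the repressor, and REST in turn represses Srrm4. In mouse small cell lung cancer, REST is known from the Notch-active non-neuroendocrine cells. Counts per gene show neither the truncated splice form nor the protein.

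The libraries held 6730816 to 10659524 counts over genes. Levels are CPM on library sizes scaled by the TMM method, and levels of different genes are compared only per kilobase of exon. NE replicate 2 exceeded day 0 replicate 1 in 0 genes and matched a random draw of 85.7% of its counts within sampling noise (chi-square per gene 1.03 over 12673 genes), so NE and day 0 share reads and are not independent. The labels do not settle to which group the shared reads belong, so the NE (n = 3) and day 0 (n = 2) values rest on both labels. Chi-square per gene was 1.68 between day 0 replicates 1 and 2. It was 39.3 between NE replicates 1 and 2 and 61.1 between NE replicates 2 and 3, with NE replicates 1 and 3 in between. By counts the shared reads were thus nearer to day 0 replicate 2 than to the other NE libraries. Which label is right was not tested. Summed CPM of 6 neuroendocrine markers was 57.0 to 412 in Non-NE and 2268 to 3588 in NE libraries. Calca, the gene whose promoter drives Cre, was at 0 in both. Of the 5 markers tested, 4 were lower in Non-NE and 1, Ncam1, was higher, beside 22.8% and 20% of all genes. Ncam1 changed by 2.87 on the log2 scale (adjusted p = 0.0319 in edgeR). Summed CPM of 5 markers of the non-neuroendocrine state was 4837 to 9905 in Non-NE and 25.8 to 48.8 in NE libraries. Of these 5, 4 were higher in Non-NE, beside 20% of all genes. The other, Hes1, was not called (log2 change 0.20, SE 0.80, adjusted p = 0.857 in edgeR). The neuroendocrine sum was 3518 to 3714 at day 0, 1441 to 1742 at day 3, 646 to 729 at day 7 and 553 to 570 at day 21. At day 21 against day 0, 4 of the 5 tested were lower, beside 34% of all genes. Ncam1 was again higher (log2 change 1.31, adjusted p = 1.13e-13 in edgeR), where 37.7% of all genes were. In bulk RNA, fewer cells of a type and less RNA per cell cannot be told apart.

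Because REST acts through the RE1 element, promoter windows of 300 bases from RefSeq (GRCm38.p6) were searched on both strands for its left part TTCAGCACC and its right part GGACAGCG with 2 bases between them. At most 3 mismatches over the 17 compared bases were allowed. Of 32851 promoters, 52 (0.158%) held such a match, and so did 4 of the 22 listed REST target genes that have a RefSeq promoter entry. The windows shown here belong to genes whose levels are given further on, with the compared bases in capitals. Gria2 (glutamate receptor subunit) lies at chr3:80802974-80803022 on the plus strand with 1 mismatch, Celsr3 (a cadherin of axon guidance) at chr9:108825903-108825951 on the plus strand, Syn1 (synapsin) at chrX:20921117-20921165 on the minus strand, Dner (a transmembrane Notch ligand of neurons) at chr1:84696338-84696386 on the minus strand and Hrh3 (histamine receptor) at chr2:180104559-180104607 on the plus strand. The last 4 have 2 mismatches each.
Gria2: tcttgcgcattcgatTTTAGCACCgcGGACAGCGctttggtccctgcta
Celsr3: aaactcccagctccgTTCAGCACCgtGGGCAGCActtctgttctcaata
Syn1: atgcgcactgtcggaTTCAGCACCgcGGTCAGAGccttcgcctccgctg
Dner: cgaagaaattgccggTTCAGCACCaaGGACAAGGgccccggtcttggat
Hrh3: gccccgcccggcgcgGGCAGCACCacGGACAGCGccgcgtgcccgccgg

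Of the 4 genes of the group with a promoter entry (Srrm4, Rcor1, Rcor2 and Rcor3), 0 held both parts at that spacing. The promoter of Rcor2 held the right part GGACAGCG alone, in a window at chr19:7267306-7267353 on the plus strand that spans the annotated gene start, with that part in capitals. It occurred in 1.26% of all promoters and TTCAGCACC in 0.371%. A match of letters is a description of the window and not a binding site.
Rcor2: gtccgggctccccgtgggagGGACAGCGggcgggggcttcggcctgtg

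Rest, on chromosome 5 from 77265491 to 77286432 on the plus strand (GRCm38), was at or near 0 in NE libraries and well covered in Non-NE libraries. It had 398, 610 and 517 counts in the Non-NE libraries and 9, 0 and 1 in the NE libraries, which is 63.9, 74.4 and 54.7 CPM against 0.867, 0 and 0.106 CPM. Every Non-NE library lay above every NE library. The pooled counts differed 185-fold, with a 95% counting interval of 100.1 to 386. The edgeR quasi-likelihood test gave a log2 change of 7.48 (SE 0.86, Benjamini-Hochberg adjusted p = 0.000829). Without NE replicate 2, which shares reads with day 0, the log2 change was 6.97 (adjusted p = 0.00202). NE replicate 1 held 9 of the 10 NE counts, and the log2 change was 9.86 without it. Rest passed the filter on low counts through the groups in which it is high.

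In the YAP5SA cells Rest appeared after day 0 and went on climbing to day 21. Its counts were 0 and 2 at day 0, 15 and 21 at day 3, 151 and 133 at day 7, and 313 and 356 at day 21. In CPM the libraries stood at 0 and 0.186, then 1.47 and 1.95, then 15.4 and 13.6, and then 29.9 and 34.5. The libraries of no 2 neighbouring days overlapped. Pooled counts at day 3 were 18.3-fold those of day 0, with an interval of 4.72 to 157, since day 0 held only 2 counts. Day 7 was 8.46-fold above day 3 (interval 5.97 to 12.3) and day 21 was 2.22-fold above day 7 (interval 1.93 to 2.56). All 3 steps passed the test, with adjusted p = 2.12e-05, 2.14e-11 and 1.76e-07 in edgeR. Between day 21 and day 0 the ratio was 344, with an interval of 94.8 to 2846, and both day 0 counts came from replicate 2. Without that library the log2 change was 7.13 at day 3 and 11.39 at day 21 against day 0, and 4.01 and 8.28 with it. The step from day 7 to day 21 (log2 change 1.15) did not pass in the fit of 13 libraries, whose spread is that of all groups.

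Day 21 did not reach the Rest level of Non-NE cells. The day 21 libraries averaged 32.2 ± 3.30 CPM (SD, n = 2) and the Non-NE libraries 64.4 ± 9.88 CPM (SD, n = 3), without overlap. In the fit of 13 libraries, which leaves out NE replicate 2, the log2 change was -1.02 (SE 0.38, adjusted p = 0.0422 in edgeR). That call was lost without Non-NE replicate 2 (-0.92), day 21 replicate 1 (-0.91) or day 21 replicate 2 (-1.12), and with library totals in place of TMM (-0.84). The YAP5SA set and the Non-NE set cannot be told apart from the groups. The order of the groups for Rest was Non-NE, day 21, day 7, day 3, NE and day 0, and only NE and day 0 overlapped.

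Markers of other cell types were read beside Rest, since Rest is broadly expressed outside the nervous system. All 4 tested of 6 fibroblast markers were higher in Non-NE cells, with a summed level of 1411 to 7750 CPM in Non-NE and 1.73 to 6.94 CPM in NE libraries, and Thy1 was at 0 in Non-NE. At day 21 that sum was 42.8 to 47.7 CPM, against 5.95 to 6.40 CPM at day 0. Between those days 3 of the 6 were tested and all 3 were higher, among them Thy1 (log2 change 3.22). At day 21 against Non-NE, 1 of 5 tested was higher (Thy1) and 3 were lower, so the sums differ in make-up. The neuron or glia markers summed to 2.73 to 22.8 CPM in Non-NE and 172 to 187 CPM in NE libraries, and to 186 to 195 CPM at day 0, 168 to 170.4 at day 3, 342 to 355 at day 7 and 253 to 286 at day 21. The sum of the non-neuroendocrine state was 44.3 to 49.0 CPM at day 0, 1121 to 1292 at day 3, 814 to 876 at day 7 and 557 to 569 at day 21, while Rest was higher on each later day. That sum includes Yap1, the gene of YAP, whose log2 change was 7.25 at day 3 against day 0. Yap1 then changed by -0.57 at day 7 against day 3 and by -1.83 at day 21 against day 7. In that last step 4 of the 5 markers were higher and 1, Yap1, was lower in edgeR. Whether Yap1 counts came from the transgene was not tested. The part of other cell types in the Rest level was not tested. Leukocyte markers summed to 5.46 to 9.10 CPM in Non-NE and 4.45 to 41.9 CPM in NE libraries, and endothelial markers to at most 2.22 CPM in both.

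**Figure D1:**
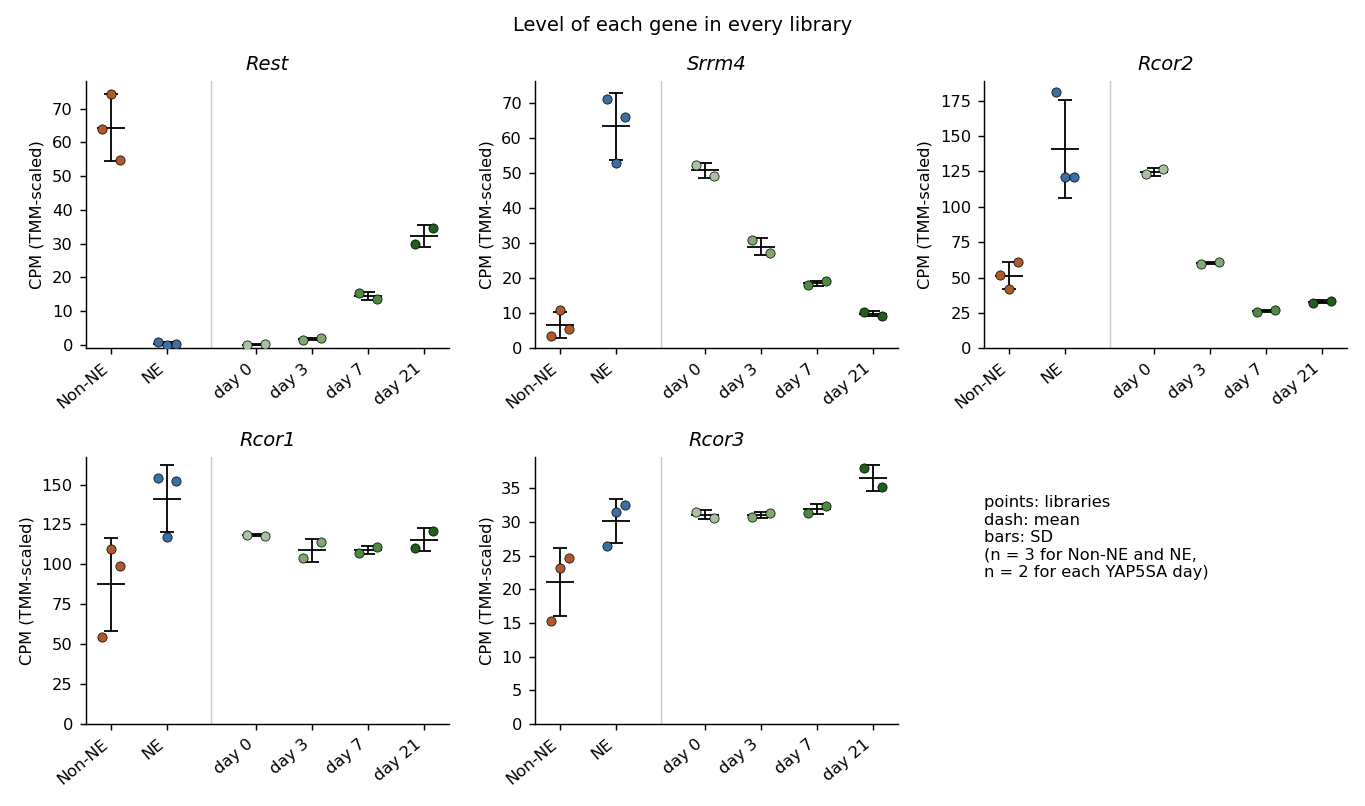
Level of Rest, Srrm4, Rcor2, Rcor1 and Rcor3 in CPM (vertical axis) in each library of Non-NE, NE and YAP5SA days 0, 3, 7 and 21, with mean and SD. Rest reaches 54.7 to 74.4 CPM in Non-NE libraries and at most 0.867 CPM in NE libraries, while Srrm4 runs the other way.

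Srrm4, at 116439275 to 116591817 on the minus strand of chromosome 5, had the opposite course. Non-NE libraries held 3.53, 10.9 and 5.61 CPM and NE libraries 71.1, 52.8 and 66.0 CPM, without overlap. The change was -3.27 on the log2 scale (SE 0.43, adjusted p = 0.00135 in edgeR). In the YAP5SA cells Srrm4 fell at each step, with 52.4 and 49.2 CPM at day 0, 30.8 and 27.2 at day 3, 18.1 and 19.1 at day 7 and 10.4 and 9.31 at day 21. No neighbouring days overlapped. The steps were -0.82, -0.61 and -0.90 on the log2 scale, with adjusted p = 1.88e-07, 7.30e-05 and 6.71e-06 in edgeR, and day 21 lay 2.34 below day 0 (log2 change -2.34, SE 0.12, adjusted p = 3.60e-15). The 3 single steps (-0.81, -0.64 and -0.91) did not pass in the fit of 13 libraries.

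The day 21 libraries overlapped the Non-NE libraries for Srrm4, and the difference did not pass the test (log2 change 0.54, SE 0.34, adjusted p = 0.198). Without Non-NE replicate 2, the highest Non-NE library, the log2 change was 1.04 and passed. An antisense gene, Srrm4os, shares 68 exon bases with Srrm4, and the sources used here do not give whether counting used strand. Per kilobase of exon, the Rest level was 13.9 ± 7.01 times that of Srrm4 in Non-NE (SD, n = 3) and 0.00553 ± 0.00796 times in NE (SD, n = 3). The ratio was 0.00227 at day 0, 0.0715 at day 3, 0.940 at day 7 and 3.95 at day 21.

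Rcor2, on chromosome 19 from 7267325 to 7275225 on the plus strand, encodes a CoREST paralogue known from stem cells and neural progenitors. It stood at 51.6, 42.0 and 60.7 CPM in Non-NE and at 181, 121 and 121 CPM in NE libraries, without overlap (log2 change -1.48, SE 0.25, adjusted p = 0.00344 in edgeR). Days 0, 3 and 7 held 123 and 127, 59.8 and 60.7, and 25.9 and 26.7 CPM. Rcor2 thus fell by day 3 (log2 change -1.07, adjusted p = 2.90e-11) and again by day 7 (-1.17, adjusted p = 7.73e-11).

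The day 21 libraries of Rcor2, at 32.1 and 33.5 CPM, lay above those of day 7 (log2 change 0.33, SE 0.10, adjusted p = 0.00705), although the call was lost without day 7 replicate 1 (0.31) and in the fit of 13 libraries (0.32, adjusted p = 0.448). Day 21 was still 1.90 below day 0 on the log2 scale (log2 change -1.90, adjusted p = 2.38e-16). It was also below Non-NE (-0.66, SE 0.19, adjusted p = 0.0152), a call that was lost without day 21 replicate 1 (-0.63) or replicate 2 (-0.69). Day 3 and Non-NE were neighbours in the order of Rcor2 levels and overlapped.

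Rcor1, on chromosome 12 from 111039351 to 111115901 on the plus strand, encodes the founding CoREST protein. It stood at 54.3, 109 and 98.9 CPM in Non-NE and 154, 117 and 152 CPM in NE libraries. The groups did not overlap, but the log2 change of -0.72 (SE 0.29) missed the threshold (adjusted p = 0.0838 in edgeR). DESeq2 gave -0.74 with adjusted p = 0.0497, and library totals in place of TMM gave -0.98, which passed. Days 0, 3, 7 and 21 held 119 and 118, 104 and 114, 107 and 111, and 110 and 121 CPM, and no step between days passed, although day 3 against day 0 did with library totals (-0.20), under which day 7 against day 3 was -0.11 in place of 0.03. Between day 21 and day 0 the log2 change was -0.01 with SE 0.08.

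Rcor3, at 192098546 to 192138062 on the minus strand of chromosome 1, encodes the third paralogue. It stood at 15.3, 23.2 and 24.6 CPM in Non-NE and 26.4, 31.5 and 32.5 CPM in NE libraries (log2 change -0.55, SE 0.27, adjusted p = 0.142 in edgeR). The groups did not overlap, and library totals in place of TMM gave -0.81, which passed. Days 0, 3 and 7 held 31.5 and 30.7, 30.7 and 31.4, and 31.3 and 32.4 CPM, with no step passing the test. Day 21, at 38.0 and 35.2 CPM, was 0.26 above day 0 on the log2 scale (SE 0.10, adjusted p = 0.0215), a call that was lost without either day 0 replicate (0.28 and 0.24) and without day 21 replicate 1 (0.20). It was also lost in the DESeq2 test (0.27, adjusted p = 0.0662), with library totals (0.12, adjusted p = 0.296) and in the fit of 13 libraries (0.24, adjusted p = 0.413). Day 21 was above Non-NE by 0.78 (SE 0.19, adjusted p = 0.00603). The antisense genes Gm10516 and Gm26879 share 336 and 667 exon bases with Rcor3 and held 317 and 2 counts over the 14 libraries, and Gm37055 a further 133. The sources used here do not give how reads of shared bases were assigned.

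**Figure D2:**
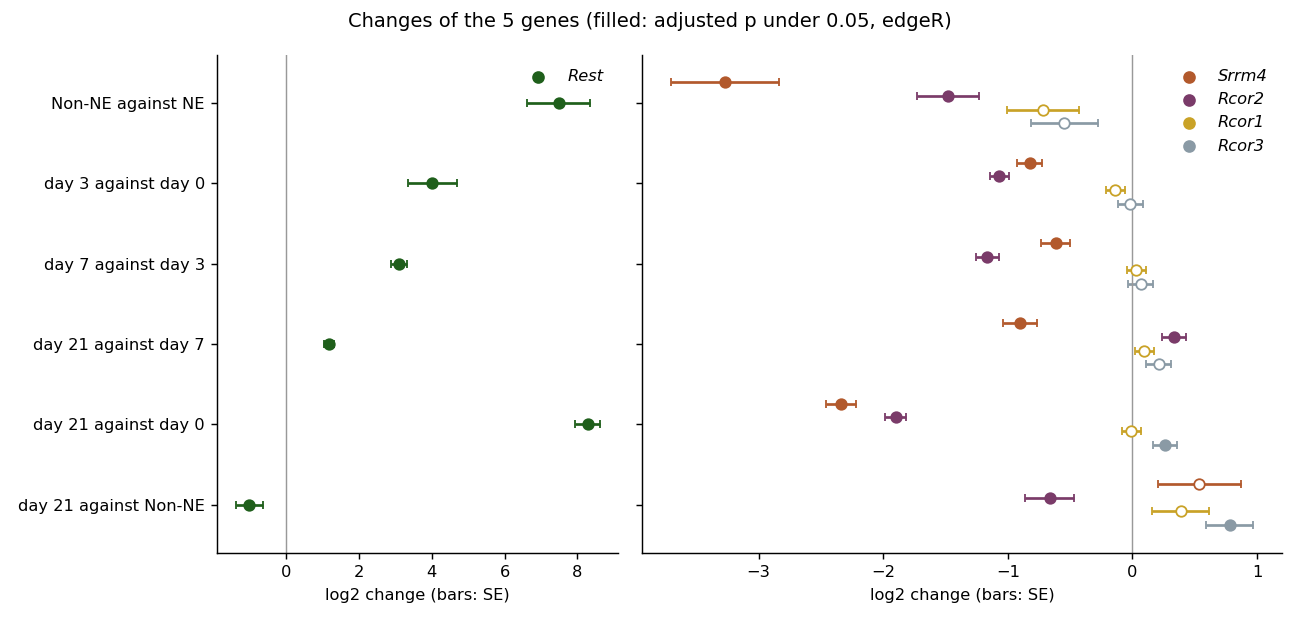
Log2 change with SE (horizontal axis) of Rest in the left panel and of Srrm4, Rcor2, Rcor1 and Rcor3 in the right panel, for 6 comparisons. Filled points passed an adjusted p of 0.05 in edgeR, and Rest changes by 7.48 and 8.28 in the top and the day 21 against day 0 comparisons.

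Counted together, 1 of the 5 genes was higher and 2 were lower in Non-NE cells, where 20% of 12966 tested genes were higher and 22.8% lower. By day 3 against day 0 it was 1 higher and 2 lower (26.2% and 22.4% of 13996 genes). By day 7 against day 3 it was again 1 higher and 2 lower (29.5% and 26.1%). By day 21 against day 7, 2 were higher and 1 lower (26.1% and 24.2%), and by day 21 against day 0, 2 were higher and 2 lower (37.7% and 34%). Between day 21 and Non-NE 3 of 5 differed, and 55.3% of 14820 genes did. Beside these shares, the counts are no result about the 5 genes as a group.

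The change by day 21 and the change in Non-NE were also compared directly, as day 21 minus day 0 set against Non-NE minus NE. In edgeR 0 of 5 genes differed at an adjusted p under 0.05 (adjusted p = 0.394 for Rest, 0.146 for Srrm4, 0.108 for Rcor1, 0.34 for Rcor2 and 0.0808 for Rcor3), where 32.8% of genes did. At an unadjusted p under 0.05 there were 2, Rcor1 and Rcor3, and DESeq2 called 1, Rcor3. For Rest the difference was 1.26 with SE 1.05, and -0.85 without NE replicate 1. These comparisons share reads through NE replicate 2 and day 0 replicate 1, which is why NE replicate 2 was left out.

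Within the CoREST family, Rcor2 led at day 0 and Rcor1 led from day 7 on, per kilobase of exon. The lengths cover all annotated exons, 5684 bases for Rcor1, 3157 for Rcor2 and 13622 for Rcor3, and not the transcripts in use. In CPM, Rcor1 and Rcor2 averaged 118 and 125 at day 0. Per kilobase of exon, Rcor2 made up 49.8% ± 10.8 of the summed level in Non-NE and 61.9% ± 4.82 in NE (SD, n = 3 each), where the Non-NE libraries ranged from 38.8% to 60.5% and the NE libraries from 56.8% to 66.4%. In the YAP5SA cells the Rcor2 share was 63.1% at day 0, 47.1% at day 3, 27.9% at day 7 and 31.1% at day 21. Rcor1 made up 33.2%, 47.2%, 64.2% and 60.8% on those days. Rcor3 never exceeded 8.61% in a library. The summed family level was 33.2 ± 5.79 CPM per kilobase in Non-NE and 71.7 ± 13.1 in NE, and 62.7, 40.5, 29.9 and 33.4 CPM per kilobase on days 0, 3, 7 and 21.

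**Figure D3:**
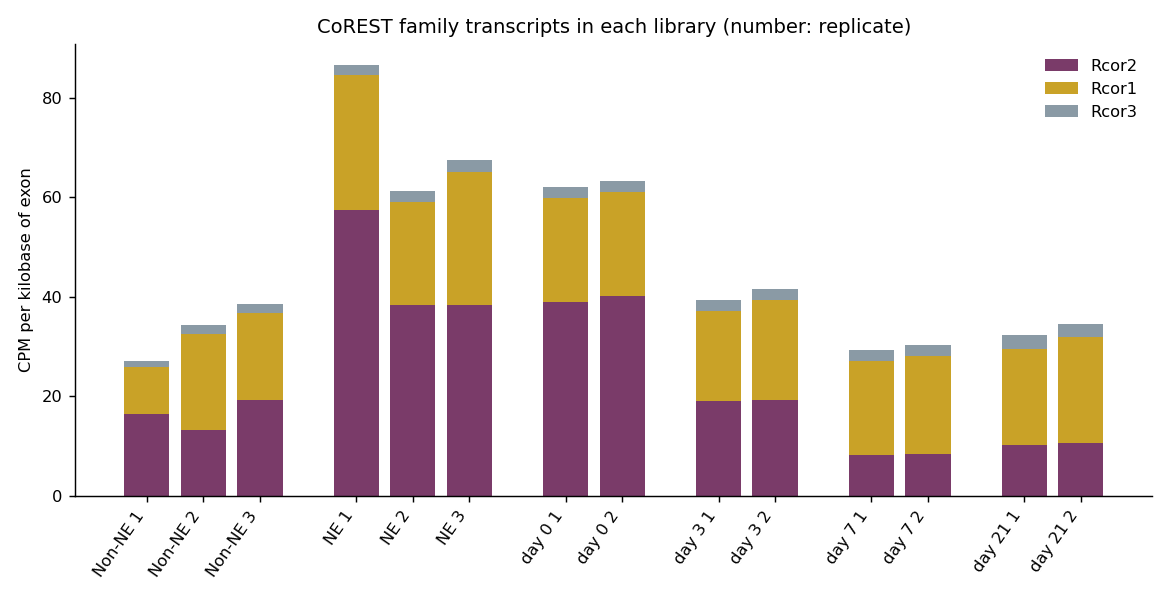
Summed level of the CoREST genes in CPM per kilobase of exon (vertical axis) in each library, split into Rcor2, Rcor1 and Rcor3. Rcor2 makes up 63.1% of the sum at day 0, 47.1% at day 3, 27.9% at day 7 and 31.1% at day 21.

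Of 22 listed partners, which include KDM1A, the deacetylases and SIN3 proteins, 2 were higher (Sin3b and Cdyl) and 5 lower in Non-NE (median log2 change -0.01, all genes -0.02), beside 20% and 22.8% of all genes. Gse1, a component of the CoREST complex, had 31.0, 31.1 and 45.7 CPM in Non-NE and 121, 87.3 and 72.1 CPM in NE libraries (log2 change -1.40, adjusted p = 0.00680). Zmym2, a zinc finger partner of the same complex, changed by -1.05 (adjusted p = 0.0214). These counts rested on single libraries: with each library left out in turn, 1 to 2 were higher and 2 to 4 lower (1 and 2 without NE replicate 1, 1 and 4 without NE replicate 2). In the fit of 13 libraries 4 were higher and 7 lower. Kdm1a did not pass, at 142, 189 and 169 CPM in Non-NE and 214, 150 and 212 CPM in NE libraries.

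By day 21 against day 0, 9 of the 22 partners were higher and 11 lower (median log2 change -0.23, all genes 0.02), beside 37.7% and 34% of all genes. Gse1 stood at 37.1 and 55.7 CPM at day 21 and 87.8 and 90.6 CPM at day 0 (log2 change -0.92, adjusted p = 6.33e-07). Cdyl, a chromodomain protein that bridges REST and a histone methyltransferase, stood at 43.5 and 39.8 CPM at day 21 and 25.6 and 21.3 CPM at day 0 (log2 change 0.86, adjusted p = 1.48e-07).

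REST protein is marked for destruction by a ubiquitin ligase with the F-box protein BTRC or its relative FBXW11, and small phosphatases of the CTDSP family stabilise it. Of 11 genes of that turnover, 1 was higher and 0 lower in Non-NE, where 20% and 22.8% of all genes were. That gene, Ctdsp1, had 122, 104 and 142 CPM in Non-NE and 66.0, 70.9 and 45.8 CPM in NE libraries (log2 change 0.98, adjusted p = 0.0141). At day 21 against day 0, 2 were higher and 5 lower, beside 37.7% and 34% of all genes. Ctdspl rose to 96.5 and 107 CPM at day 21, against 39.1 and 36.4 CPM at day 0 (log2 change 1.45, adjusted p = 6.70e-14), and Fbxw11 changed by 0.61 (adjusted p = 3.55e-08). Rbx1, the ring subunit of the ligase, changed by -1.04 (adjusted p = 2.63e-09). No protein was measured.

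Neuronal genes known as REST targets were mostly lower in Non-NE cells. Of 36 listed genes 26 could be tested in Non-NE against NE, and 24 were lower and 1 higher, beside 22.8% and 20% of all genes. The median log2 change was -7.24 (all genes -0.02), and the counts were the same without NE replicate 2. A gene at 0 in one group passed the filter only if it was high in the other, so these counts are no independent support for a direction. Some of these genes, such as Chga, are also neuroendocrine markers. Snap25, a vesicle fusion protein, had 0, 0.122 and 0.317 CPM in Non-NE and 323, 428 and 385 CPM in NE libraries (log2 change -11.07, adjusted p = 2.59e-05). Pcsk2, a prohormone convertase, had 3 counts over Non-NE and 10374 over NE, a ratio of NE to Non-NE of 2856 with a counting interval of 977 to 13850. Bdnf, a neurotrophin gene, was the 1 higher gene, at 57.0, 78.2 and 60.5 CPM in Non-NE and 1.54, 0.881 and 0 CPM in NE libraries.

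Through the YAP5SA series the list did not move as one. Of 29 tested genes, 9 were higher and 16 lower at day 3 against day 0, beside 26.2% and 22.4% of all genes. The same numbers held at day 7 against day 3, beside 29.5% and 26.1% of all genes. At day 21 against day 7, 3 were higher and 21 lower, beside 26.1% and 24.2%. At day 21 against day 0, 7 were higher and 21 lower, beside 37.7% and 34% (median log2 change -1.66, all genes 0.02). Gjd2, a gap junction protein, was at 53.6 and 53.0 CPM at day 0, 27.9 and 18.8 at day 3, 6.94 and 7.75 at day 7 and 3.72 and 3.20 at day 21 (log2 change -3.91 at day 21 against day 0, adjusted p = 2.53e-16). Snap25 kept 126 and 95.7 CPM at day 21, against 429 and 429 CPM at day 0. Nppb, a natriuretic peptide gene, was at 0.283 and 0.0929 CPM at day 0, 13.8 and 13.1 at day 3, 66.1 and 61.0 at day 7 and 18.1 and 20.1 at day 21. Bdnf was at 0.848 and 1.30 CPM at day 0 and 65.8 and 68.5 CPM at day 21 (log2 change 5.97, adjusted p = 2.74e-20).

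**Figure D4:**
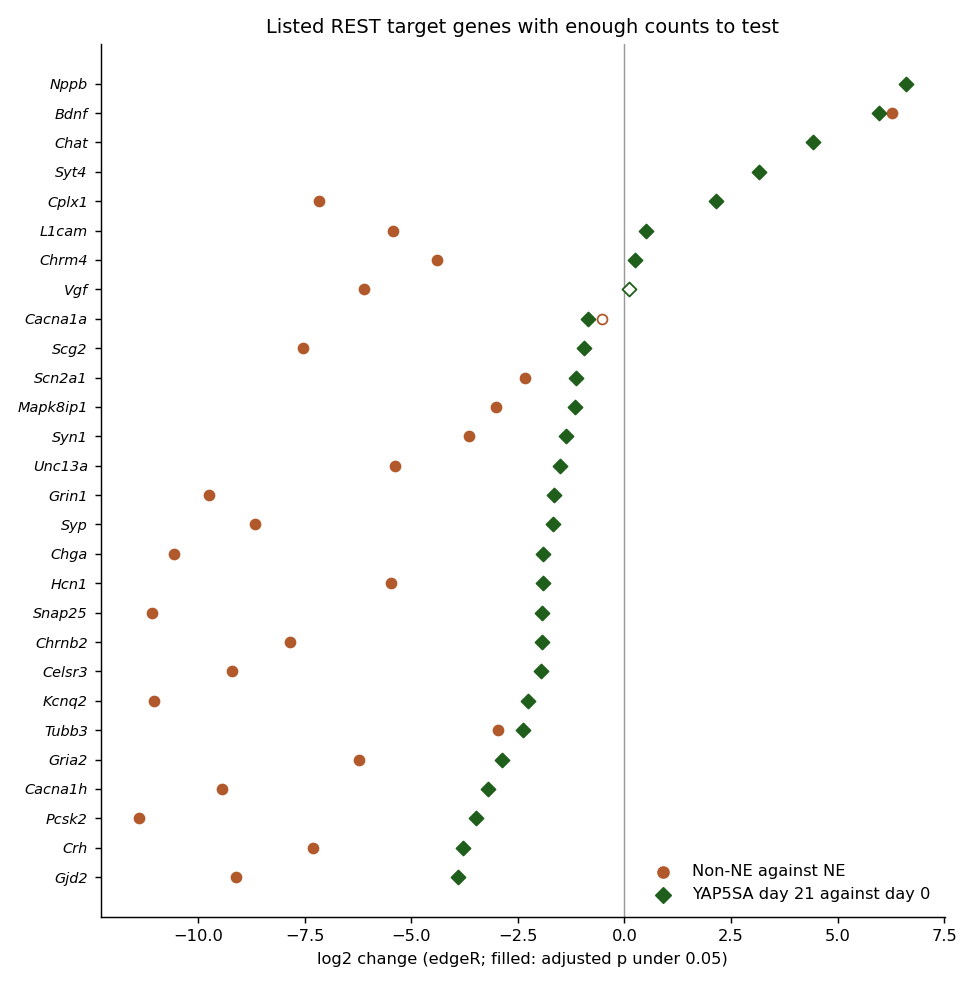
Log2 change (horizontal axis) of listed REST target genes in Non-NE against NE (circles) and day 21 against day 0 (diamonds), each row a gene reported by name and filled where the adjusted p was under 0.05 in edgeR. Most circles lie far to the left, and most diamonds lie closer to 0; the medians over all listed genes tested are -7.24 and -1.66.

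A second set was chosen by an RE1-like promoter match, after the files were seen. It shares 4 genes (Gria2, Celsr3, Syn1 and Chrm4) with the listed targets, so both sets overlap. Of 51 such genes 35 were tested in Non-NE against NE, and 0 were higher and 16 lower (median log2 change -0.84, all genes -0.02), beside 20% and 22.8% of all genes. Of these, 5 had no count in Non-NE and passed the filter through NE, so they could only be called lower. Others near 0 in Non-NE, among them Lhfpl5 (1 count over the group) and Dner (7 counts), also passed through NE. These counts are thus no independent support for a direction. The DESeq2 test called 1 gene of the set higher, as did edgeR without Non-NE replicate 1 or replicate 3. The fit of 13 libraries called 3 higher and 21 lower. In edgeR, of the 10 tested with at most 2 mismatches, a limit chosen after seeing the data, 9 were lower and 0 higher. All of the 9 but Syn1 had at most 17 counts over Non-NE and passed the filter through NE. At day 21 against day 0, 7 of 37 were higher and 24 lower (median log2 change -0.43, all genes 0.02), beside 37.7% and 34% of all genes. Dner stood at 0.271 ± 0.225 CPM in Non-NE and 136 ± 28.6 CPM in NE (SD, n = 3 each), with a log2 change of -8.84 (adjusted p = 4.47e-05). Hrh3 was at 0 counts in Non-NE and 1568 in NE, at least 432-fold lower at the floor of 3 counts over the group. Celsr3 had 0.161, 0.122 and 0.317 CPM in Non-NE and 117, 94.6 and 170 CPM in NE libraries.

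The 5 promoter genes shown by sequence, named after their values were seen, were lower at day 21 than at day 0. Others of the set were higher, among them Rasgrf1 (log2 change 4.87, adjusted p = 6.51e-13), a Ras exchange factor. Of the 11 genes tested with at most 2 mismatches, 8 were lower, 1 was higher and 2 were not called. Those 2 were Osbp2, with 0 mismatches (log2 change 0.15, adjusted p = 0.359 in edgeR), and Ogdhl, with 1 (-0.09, adjusted p = 0.467). Dner changed by -2.52 at day 21 against day 0 (adjusted p = 5.47e-19), Gria2 by -2.88 (adjusted p = 1.42e-15), Hrh3 by -1.96 (adjusted p = 4.84e-14), Celsr3 by -1.95 (adjusted p = 6.97e-15) and Syn1 by -1.37 (adjusted p = 1.45e-13). In NE cells Gria2 was uneven, with 2.41, 43.7 and 1.8 CPM, and the high library was NE replicate 2. Its change in Non-NE, -6.22 (adjusted p = 0.0256), was -3.29 without that library (adjusted p = 0.0488). Syn1 had 1.77, 28.1 and 9.73 CPM in Non-NE and 151, 148 and 189 CPM in NE libraries.

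**Figure D5:**
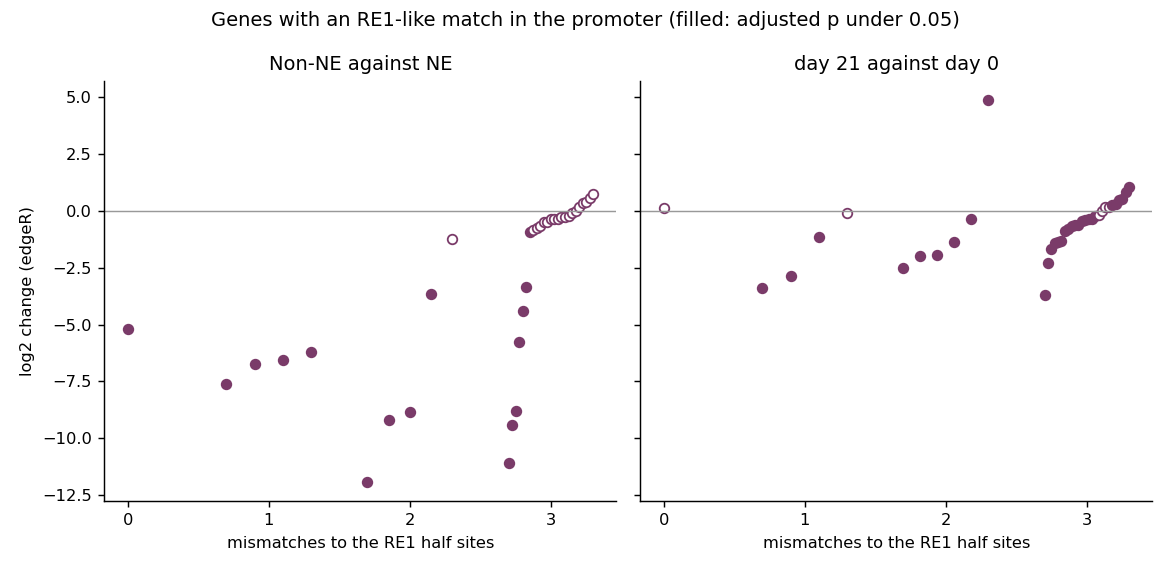
Log2 change (vertical axis) of genes with an RE1-like promoter match, by number of mismatches to the RE1 letters (horizontal axis), in Non-NE against NE (left) and day 21 against day 0 (right), filled where the adjusted p was under 0.05 in edgeR. Of the 10 genes tested with at most 2 mismatches on the left, 9 are filled and below 0, beside 22.8% of all genes called lower. All of the 9 but Syn1 had at most 17 counts over Non-NE. They passed the count filter through NE, so their direction is no independent support.

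Factors that share the SNAG domain, a peptide that recruits KDM1A with CoREST, split. Of 8 listed genes 5 were tested, and 3 were lower in Non-NE (Gfi1, Scrt1 and Insm1) and 2 higher (Snai1 and Snai2). Of all genes 22.8% were lower and 20% higher. Gfi1 and Scrt1 had no count in Non-NE and passed the filter through NE, so they could only be called lower. The median log2 change was -9.97, and -8.03 with Gfi1 and Scrt1 at their bounds. Gfi1, a zinc finger repressor of neuroendocrine and blood cells, had 0 counts in Non-NE and 61.5, 47.4 and 37.6 CPM in NE libraries, at least 392-fold lower. Scrt1 also had 0 counts in Non-NE, at least 261-fold lower. Insm1 had 0.161, 0.610 and 0.529 CPM in Non-NE and 473, 407 and 506 CPM in NE libraries (log2 change -9.97, adjusted p = 2.51e-05). At day 21 against day 0, 5 of 6 were lower and 1 was higher, beside 34% and 37.7% of all genes. Insm1 still had 65.3 and 66.2 CPM at day 21, against 400.1 and 417 CPM at day 0.

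Srrm4 was not alone among the listed splicing factors, which are not all particular to neurons. Of 20 listed, 17 were tested in Non-NE against NE, and 11 were lower and 1 higher (Rbfox2), beside 22.8% and 20% of all genes. The median log2 change was -4.76 (all genes -0.02). Genes near 0 in Non-NE passed the filter through NE, so these counts are no independent support for a direction. Srrm3, the closest relative of Srrm4, had 3 counts over Non-NE and 3038 over NE, a ratio of NE to Non-NE of 836 with an interval of 286 to 4058. Elavl3, an RNA-binding protein of neurons, had 0.321, 0.244 and 0.529 CPM in Non-NE and 380, 336 and 423 CPM in NE libraries, and Elavl4 had 1 count over Non-NE and 1233 over NE. At day 21 against day 0, 13 of 18 were lower and 1 higher, beside 34% and 37.7% of all genes (median log2 change -0.82, all genes 0.02). Srrm3 stood at 14.6 and 17.1 CPM at day 21 and 76.6 and 73.6 CPM at day 0 (log2 change -2.22, adjusted p = 4.12e-16), and Celf3 changed by -2.77 (adjusted p = 1.64e-17).

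Patterns of level over 13 libraries (NE replicate 2 left out) were compared across 11232 genes by Pearson r, as a description: the libraries share groups and scaling. Nearest to Rest were Kif1c, Cyp1b1 and Rin1 (r = 0.987, 0.987 and 0.985). Kif1c encodes a kinesin motor, Cyp1b1 a cytochrome P450 and Rin1 a Ras effector. Cyp1b1 averaged 604 CPM in Non-NE, 0.337 in NE, 0.280 at day 0, 3.51 at day 3, 50.7 at day 7 and 84.9 at day 21. Nearest to Srrm4 were Xpr1, Piezo2 and Pou2f2 (r = 0.985, 0.971 and 0.969), and nearest to Rcor1 were Kdm5b, Nck2 and Abtb1 (r = 0.985, 0.950 and 0.931). Nearest to Rcor2 were Klhdc10, Pitpnm1 and Rfc4 (r = 0.986, 0.975 and 0.972), and nearest to Rcor3 were Enpp5, Smpdl3a and Eml2 (r = 0.974, 0.961 and 0.957). With a prior count of 0.5 in place of 2, Rai14 took the last place for Rest, Wif1 for Srrm4 and Bhlhe40 for Rcor3.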

How the data were processed

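Poly(A) RNA of 14 libraries was sequenced. STAR 2.4.2, featureCounts and the mm10 build are named in the submitters' processing notes; the version, strand setting and annotation of the counting are not given in the sources used here. Raw counts per gene symbol were deposited by the authors, and 0 columns stayed unmapped to a sample. Of 32926 symbols 10220 were at 0 throughout, and 30152 (91.6%) occurred in GENCODE M21, used for positions and exon lengths. Promoter sequences are RefSeq's (GRCm38.p6); the table has no entry for Rest.

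Counts were scaled by TMM, filtered with filterByExpr and fitted in edgeR 4.0.16 (R 4.3.3) by its quasi-likelihood method with robust dispersions, with Benjamini-Hochberg adjustment over all genes tested and calls at 0.05. Non-NE against NE used 6 libraries (12966 genes), the days 8 libraries (13996 genes), and comparisons across both sets 13 libraries (14820 genes). Common biological variation between libraries (BCV) came to 0.399, 0.0548 and 0.266. For a gene with no count in a group, 3 counts over that group were taken as the floor (0.104 to 0.153 CPM). Floors and 95% intervals cover counting error only. With so wide a spread between Non-NE and NE libraries, a change there that misses the threshold is not shown to be absent. The pipeline was tested on simulated data.

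The members and gene lists were chosen with earlier results of these data known. Named list genes are the 3 called genes with the largest change and at least 10 CPM in the higher group. Further genes (Kdm1a, Chga, Ncam1, Yap1, Hes1, Thy1, Sin3b, Snai1, Snai2, Rbfox2 and the promoter genes) were named after their values were seen. Of the listed genes 2 are not reported here by name and stay in the counts and medians of their lists. Alternatives were DESeq2 1.42.0 (size factors and test), limma-voom (limma 3.58.1), scaling by library totals, leaving out the count filter, a filter at 1 CPM, other library sets, the replicate number as a block, each library left out, and for patterns a prior count of 0.5 in place of 2 or all 14 libraries.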

Additional observations from a re-analysis of the deposited data

Results flagged for a closer look

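For 24 genes named in the text, the change by day 21 (against day 0) was compared with the change in Non-NE (against NE) in the edgeR fit of 13 libraries, and 12 differed at an adjusted p under 0.05, none of them Rest, Srrm4 or a CoREST gene. Of all 14820 genes 32.8% differed, and the list genes among the 24 were named for having the largest changes in either comparison. The log2 difference of the changes, day 21 minus Non-NE, was 9.87 for Scrt1, 9.39 for Gfi1, 9.0 for Snap25, 8.29 for Elavl4, 7.92 for Pcsk2 and 7.5 for Srrm3. It was 7.39 for Insm1, 7.01 for Elavl3, 5.26 for Celf3 and 4.45 for Gjd2. For these 10 genes the fall was smaller by day 21 than in Non-NE, where each was at or near 0 counts, so the fitted size depends on the prior count. The difference was -1.60 for Ctdsp1 and -1.73 for Rbx1.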

How the results depend on the processing

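With library totals only in place of TMM, the median of all genes moved to -0.28 in Non-NE against NE (1930 higher and 3757 lower, against 2594 and 2960), to -0.12 in day 7 against day 3 (3140 and 5076, against 4128 and 3657), to -0.12 in day 21 against day 0, to 0.24 in day 21 against Non-NE and to 0.30 in the difference of changes. Calls were gained for Rcor1 (-0.98) and Rcor3 (-0.81) in Non-NE, Rcor1 at day 3 (-0.20), Rcor3 at day 21 against day 7 (0.27), Rcor1 against Non-NE (0.57) and Rcor1 (0.95) and Rcor3 (0.89) in the difference. They were lost for Rcor3 at day 21 against day 0 (0.12) and for Rest (-0.84) and Rcor2 (-0.49) against Non-NE, and the uncalled steps from day 3 to day 7 changed sign for Rcor1 (-0.11) and Rcor3 (-0.076). The DESeq2 test called Rcor1 in Non-NE (-0.74) and Rcor3 in the difference (0.71) and lost Rcor3 at day 21 against day 0 (0.27). The uncalled Rcor1 change at day 21 against day 0 was 0.0026 with DESeq2 size factors and 0.0027 in its test. In the fit of 13 libraries, whose spread is that of all groups, genes called numbered 8527 in Non-NE against NE (5554), 1296 at day 3 (6804), 1698 at day 7 (7785), 742 at day 21 against day 7 (7042) and 5085 at day 21 against day 0 (10032). There Rcor1 in Non-NE was called (-0.80), while Srrm4 at day 3 (-0.81), day 7 (-0.64) and day 21 against day 7 (-0.91), Rest (1.15) and Rcor2 (0.32) at day 21 against day 7 and Rcor3 at day 21 against day 0 (0.24) were not. With all 14 libraries Rest against Non-NE was -1.02 and not called. Beyond the constructions named, the cause was not tested.

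Leaving out each library gave, in Non-NE against NE, 6.97 to 9.86 for Rest, and at day 3 and day 21 against day 0, 3.11 to 7.13 and 7.37 to 11.39. Ranges in which a call or sign changed were -0.0352 to 0.00465 for Rcor3 at day 3, -0.0343 to 0.0973 for Rcor1 at day 7, 0.29 to 0.36 for Rcor2 at day 21 against day 7, and -0.0782 to 0.0497 for Rcor1 and 0.20 to 0.31 for Rcor3 at day 21 against day 0. Against Non-NE they were -1.14 to -0.91 for Rest, 0.25 to 1.04 for Srrm4 and -0.81 to -0.55 for Rcor2. For the difference of changes they were -0.85 to 4.29 for Rest, 0.70 to 1.49 for Srrm4, 0.52 to 0.94 for Rcor1 and 0.53 to 0.85 for Rcor3, with 3170 to 6102 genes called (3224 and 3170 without day 0 replicates 1 and 2). Replicate numbers did not pair the samples (correlation of deviations -0.02 to 0.04 in Non-NE and NE, -0.04 to 0.03 between days). With the replicate block the log2 change of Rest was 7.72 in Non-NE against NE and no call of the 5 genes changed there or between days; day 21 against Non-NE and the difference of changes had no such fit. Low counts of Rest in NE and at day 0 limit its folds.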
